A study of Mus musculus with 18 samples.

Results

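The retinal response to NACET that was common to diabetic and normoglycemic mice was examined across all 18 libraries of the series, 11 from mice that received NACET and 7 from mice that drank water. A gene belonged to this common response when its change with NACET, estimated over both genotypes together with genotype held in the model, had an adjusted p of at most 0.05, and when the changes within Akita and within WT had the same sign. Of 16183 genes tested, 4 met this rule. Csrp3 fell (1 call, 0.00618% of the genes tested), and Xlr3b, Gm4419 and Ntsr2 rose (3 calls, 0.0185%). Treated and untreated libraries did not overlap in either genotype for 2 of them, Csrp3 and Xlr3b. Of all genes tested, 4 were separated in this way and lower with NACET (0.0247%) and 1 higher (0.00618%), these 2 included. The 2 were picked by p-values from the same libraries, so their separation is not independent support.

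All mice were males. WT mice were C57BL/6J. Akita mice (C57BL/6-Ins2Akita/J) carry 1 mutated copy of Ins2 and become diabetic soon after weaning, which models insulin-deficient diabetes in the whole animal and not a defect of the eye. From 4 to 24 weeks of age the treated mice drank water with 0.33 mg/mL NACET, a daily intake of 50 mg/kg, and the others plain water. There were 4 Akita libraries, 5 Akita + NACET libraries, 3 WT libraries and 6 WT + NACET libraries, each of poly(A) RNA from retina. The labels do not state that each library came from a different mouse, so p-values measure the spread between these libraries.

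NACET, the ethyl ester of N-acetylcysteine, crosses cell membranes more readily than its parent compound and releases cysteine inside the cell, where cysteine feeds the synthesis of glutathione. In unstressed cells KEAP1 holds the transcription factor NRF2 and directs it to degradation. Modification of cysteines of KEAP1 frees NRF2, which then binds antioxidant response elements near genes for detoxification, glutathione and thioredoxin enzymes. The retina is a layered neural tissue dominated by rods, and it lies against the retinal pigment epithelium, a separate cell sheet that recycles the visual chromophore and can come away with the retina in dissection.

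The libraries held between 11495596 and 17814479 reads in genes. The 20 rod markers summed to between 123100 and 278700 CPM (read counts scaled to library size). Several measures moved with the groups or set libraries apart. The share of reads outside annotated exons was 16.4% ± 2.11 (SD, n = 5) in Akita + NACET and 11.5% ± 1.83 (n = 4) in Akita, a difference of 4.91 points (two-sided exact permutation p = 0.0159, the smallest this design allows, adjusted p = 0.0318). In WT the order was the opposite, with 12.7% ± 2.74 (n = 6) in WT + NACET and 16.3% ± 1.24 (n = 3) in WT (exact permutation p = 0.0476, adjusted p = 0.0476 over both tests). Lens crystallins summed to over 1000 CPM in 3 libraries, namely 3507 CPM in Akita replicate 2, 1557 CPM in Akita + NACET replicate 3 and 29920 CPM in WT + NACET replicate 5. Markers of the pigment epithelium varied between libraries within every group, with values given beside the genes they move with. In bulk RNA, more cells of a type and more RNA per cell cannot be told apart.

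The first comparison asked which genes changed with NACET over both genotypes. The quasi-likelihood test of edgeR with Benjamini-Hochberg adjustment called 4 genes, 0.0247% of those tested. All 4 called genes moved the same way in both genotypes. Genes just outside the threshold, among them Gm11961, Ide and Pltp, had an adjusted p of 0.124. DESeq2 called 84 genes, of which 83 moved the same way in both genotypes. Opposite changes tend to cancel in an additive fit, so agreement of sign among its calls is favoured by the selection itself. Without a threshold, 4846 genes had the same sign in both genotypes (29.9% of those tested), 2222 of them higher (13.7%) and 2624 lower (16.2%) with NACET, and all other tested genes had opposite signs. At an unadjusted p of at most 0.05, 1057 genes changed in the additive fit (6.53%), 487 higher (3.01%) and 570 lower (3.52%).

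Csrp3 encodes muscle LIM protein, a cytoskeletal adaptor best known from the sarcomere of striated muscle. The gene lies on the minus strand of chromosome 7, at chr7:56085768-56103400 (mm9). Its level was 9.75, 9.96, 8.35 and 12.6 CPM in the 4 Akita libraries, and 6.27, 7.07, 7.40, 6.65 and 5.94 CPM in the 5 Akita + NACET libraries. It was 11.7, 14.6 and 15.4 CPM in the WT libraries, and in the 6 WT + NACET libraries the lowest value was 4.87, the median 5.38 and the highest 6.75 CPM. Each treated library stood below each untreated library, in both genotypes. Over both genotypes Csrp3 fell by 0.95 on the log2 scale (SE 0.13, edgeR adjusted p = 0.00331). Within Akita it fell by 0.60 (SE 0.14, adjusted p = 0.0206), and within WT by 1.32 (SE 0.14, adjusted p = 1.56e-05). The fall was larger in WT, by 0.71 on the log2 scale (SE 0.20, adjusted p of the interaction = 0.0194). Its call held in all 18 fits that left out 1 library, with log2 changes between -1.02 and -0.86 and adjusted p between 0.000949 and 0.0235. A further fit, added once the data had been seen, held the pigment epithelium level in the model and gave a change of -0.92 with an adjusted p of 0.135.

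The stretch before the start of Csrp3 is shown because this is the gene with the smallest p. It is the sequence of the gene's strand over the 250 bases before a RefSeq start, in the build GRCm38.p6.
Csrp3 promoter, chr7:48848052-48848301, minus strand: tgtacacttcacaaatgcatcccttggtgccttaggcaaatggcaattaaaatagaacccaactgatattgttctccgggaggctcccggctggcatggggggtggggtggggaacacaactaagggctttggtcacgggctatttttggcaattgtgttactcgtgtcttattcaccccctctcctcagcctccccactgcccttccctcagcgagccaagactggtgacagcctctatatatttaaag
The antioxidant response element was searched as the letters TGACNNNGC on both strands. No match lies in these bases, nor in the 250 bases before the starts of Xlr3b, Gm4419 or Ntsr2, while 10.2% of 32851 RefSeq promoter windows of the same length hold one. The same search found 0 matches before the start of Nqo1, a gene often read as an NRF2 marker. A missing match in these windows therefore cannot tell whether NRF2 acts on a gene. Among the genes that passed an unadjusted p in each genotype, described further on, 15.9% of the 44 higher genes and 15.0% of the 20 lower genes with a promoter in the table held a match at 1 or more starts, against 11.5% of all 27025 genes.

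Xlr3b, a member of an X-linked family of near-identical genes related to the synaptonemal complex protein SCP3, rose. It lies on the plus strand at chrX:70437546-70448269 (mm9). Its level was 2.03, 3.30, 2.83 and 2.07 CPM in Akita and 6.20, 4.66, 7.08, 3.36 and 4.70 CPM in Akita + NACET. It was 0.431, 1.84 and 2.11 CPM in WT, and 5.50, 7.43 and 9.39 CPM as the lowest, median and highest value in WT + NACET. Again no treated library overlapped an untreated one, although the lowest Akita + NACET value was close to the highest Akita value. The log2 change was 1.58 over both genotypes (SE 0.27, edgeR adjusted p = 0.0358), 1.01 in Akita (SE 0.29, adjusted p = 0.035) and 2.34 in WT (SE 0.34, adjusted p = 0.000592), and the 2 changes differed (interaction adjusted p = 0.0358). Reads that fit several copies were not counted, so how the family's reads divide between copies is uncertain. The copy Xlr3a, with 796 counts in all libraries against 1323 for Xlr3b, had a log2 change of 0.40 in Akita (edgeR adjusted p = 0.437) and 2.30 in WT (adjusted p = 0.00553). Xlr3b kept its call in 7 of the 18 fits without 1 library, with adjusted p between 0.0168 and 0.353.

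Gm4419 and Ntsr2 rose over both genotypes, and within Akita neither passed after adjustment. Gm4419 is annotated as a long intergenic non-coding RNA, on the plus strand at chr12:21423772-21425664 (mm9). Its level was 0.281, 0.174, 0.251 and 0.497 CPM in Akita, and 0.827, 0.413, 0.383, 0.621 and 0.653 CPM in Akita + NACET. It was 0.144, 0.480 and 0.662 CPM in WT, and 3.04, 4.75 and 6.44 CPM as the lowest, median and highest value in WT + NACET. The WT groups stood apart, and the Akita groups overlapped. The log2 change was 2.39 over both genotypes (SE 0.40, edgeR adjusted p = 0.0358), 0.97 in Akita (SE 0.43, unadjusted p = 0.0339, adjusted p = 0.138) and 3.42 in WT (SE 0.39, adjusted p = 3.17e-05), with an interaction at adjusted p = 0.011. Ywhaq, 0.3 kb away in the annotation, encodes a 14-3-3 protein and had a log2 change of -0.29 over both genotypes (SE 0.09, adjusted p = 0.367).

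Ntsr2, a receptor for the peptide neurotensin, lies on the plus strand at chr12:16660276-16667042 (mm9). With a mean of 0.422 CPM it was below the level of 1 CPM set for genes to be named, and is given because it was 1 of only 4 calls. Its raw counts were 0, 1, 1 and 0 reads in Akita and 2, 1, 4, 1 and 1 reads in Akita + NACET. They were 3, 0 and 1 reads in WT, and between 13 and 23 reads in WT + NACET. At this depth a difference between the Akita groups was not detectable (edgeR adjusted p = 0.228), while the WT groups did not overlap (log2 change 3.46, SE 0.58, adjusted p = 0.00292). The call over both genotypes (log2 change 2.94, SE 0.49, adjusted p = 0.0358) rested on WT. Gm4419 and Ntsr2 each kept their calls in 7 of 18 fits without 1 library.

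**Figure D1:**
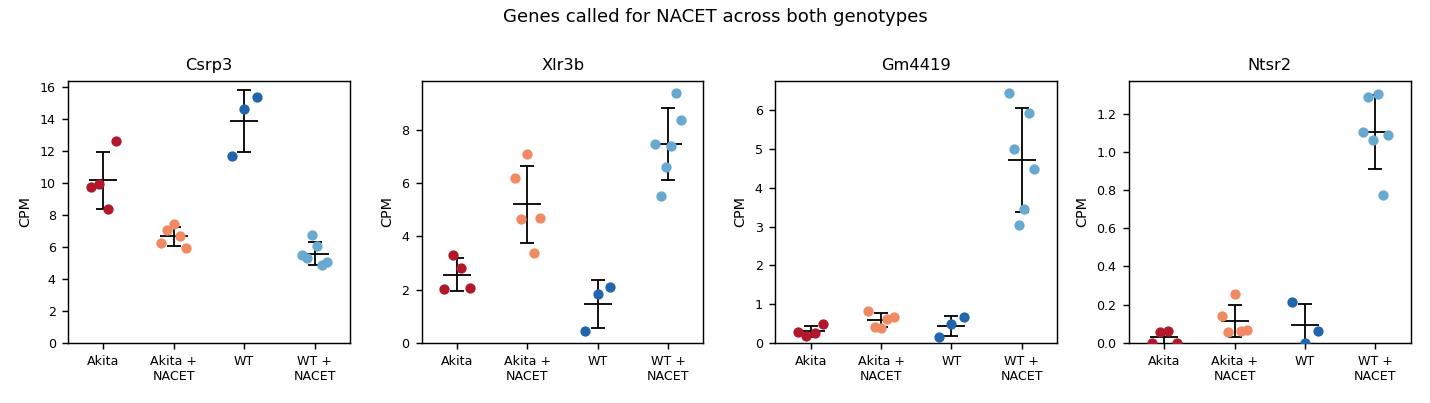
Level in CPM of the 4 called genes in each library (points), by group, with the group mean (bar) and SD (whiskers). Csrp3 in NACET libraries sits below every untreated library, at most 7.40 CPM against at least 8.35 CPM, and for Gm4419 and Ntsr2 the gap is large only in WT.

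Gm4419 and Ntsr2 both lie in the first 40 Mb of chromosome 12, 4.76 Mb apart. Of 142 genes tested in that stretch, whose bounds were chosen after the values were seen, 11 were called for NACET within WT (7.75%, against 1.48% of all genes) and 11 within Akita (7.75%, against 9.65% of all genes). For these genes NACET and any other difference between the WT and WT + NACET mice cannot be told apart.

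The second comparison required evidence in each genotype separately. The changes within Akita and within WT share no library. No gene passed when the larger of its p-values in the 2 genotypes was adjusted over all genes (0 calls with edgeR, 0 with DESeq2). At an unadjusted p of at most 0.05 in each genotype, 84 genes moved the same way (0.519% of 16183), 62 higher (0.383%) and 22 lower (0.136%). DESeq2 gave 93 such genes. These counts depended on single libraries, with 36 higher and 8 lower without WT replicate 3, 38 and 32 without WT replicate 1, 94 and 20 without WT replicate 2, and 70 and 51 without Akita replicate 3. With the share of reads outside exons in the model there were 21 higher and 11 lower genes, of which 18 and 7 were among the 84. By the same threshold 1330 genes (8.22%) passed with opposite signs in the 2 genotypes, and at an adjusted p of at most 0.05 in each genotype, 2 genes moved the same way (0.0124%), Csrp3 and Xlr3b, and 63 the opposite way (0.389%). Within Akita 1562 genes were called (9.65%), within WT 240 (1.48%), and the interaction was called for 3289 genes (20.3%). With the share of reads outside exons in the model, the interaction was called for 17 genes, and the edgeR adjusted p within Akita was 0.628 for both Csrp3 and Xlr3b. The call of Csrp3 within Akita was also lost without Akita replicate 4 (edgeR adjusted p = 0.0705) or Akita + NACET replicate 5 (edgeR adjusted p = 0.0577), and that of Xlr3b without any 1 of Akita replicates 1, 3 and 4 and Akita + NACET replicates 1, 2, 3 and 5 (edgeR adjusted p between 0.0545 and 0.0997).

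**Figure D2:**
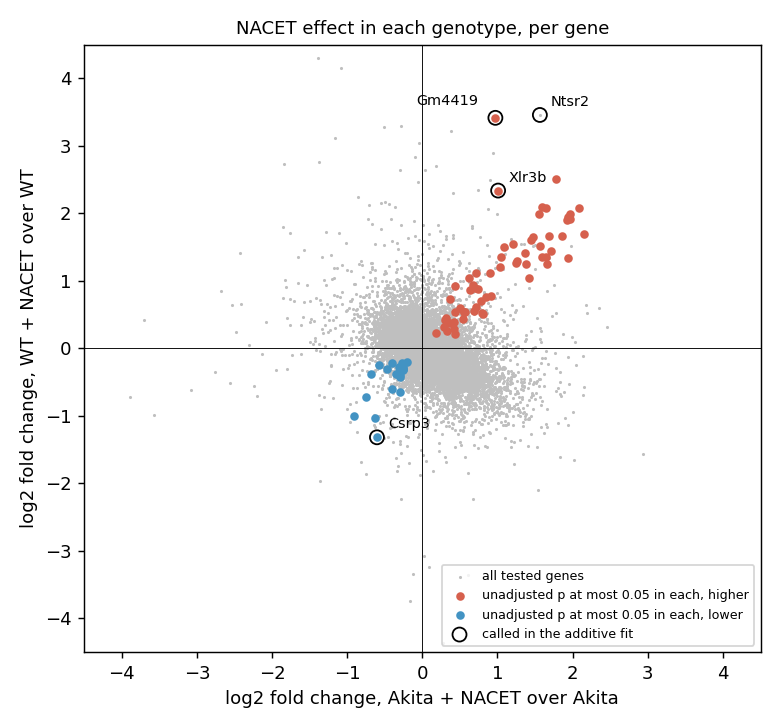
Log2 fold change with NACET within Akita (horizontal axis) and within WT (vertical axis) for each tested gene, with 23 genes outside the axes not drawn. The 62 genes higher and 22 genes lower at an unadjusted p in each genotype are coloured, the 4 called genes are ringed, and most of the cloud runs from the upper left to the lower right.

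The 84 genes were selected on those p-values, so the following is a description of them without a test. None but Csrp3, Xlr3b and Gm4419 was called after adjustment in the additive fit, and those named below were chosen after their values were seen. The higher genes had a median log2 change of 1.06 over both genotypes (range 0.20 to 2.39), and 30 of the 62 were over 2-fold higher in each genotype. The lower genes had a median of -0.35, between -0.20 and -0.95, and 0 of the 22 changed 2-fold in each genotype.

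Of the list of 16 pigment epithelium and choroid markers, 4 were among the 62 higher genes, Rgr, Rdh5, Lrat and Slc6a20a, and 0 among the 22 lower genes. Of all genes, 0.383% were in the higher group and 0.136% in the lower group. Rgr encodes an opsin of the epithelium and Mueller cells that acts in the visual cycle, Rdh5 is a retinol dehydrogenase, Lrat esterifies retinol and Slc6a20a encodes an amino acid transporter. The 62 also held Stra6, the receptor that takes up retinol from the blood, and Rdh10, another retinol dehydrogenase, which are not on the list. All 16 markers were tested, and 14 were higher in both genotypes, 1 was lower in both and 1 had opposite signs, against 13.7% higher and 16.2% lower of all genes. The median log2 change was 1.06 over both genotypes, 0.91 in Akita and 1.13 in WT, where the medians of all genes were -0.011, -0.0032 and -0.014. In the additive fit 9 of the 16 had an unadjusted p of at most 0.05, all higher, against 3.01% of all genes, and 0 were called after adjustment. The melanin pathway and melanosome genes on the list had log2 changes of 0.87 for Tyr, 0.35 for Dct, 0.15 for Pmel, 0.02 for Tyrp1 and -0.20 for Mlana, with unadjusted edgeR p between 0.109 and 0.981.

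The level of Rgr was 43.8, 25.3, 94.6 and 34.4 CPM in Akita, and 341, 311, 73.3, 327 and 53.0 CPM in Akita + NACET. It was 71.2, 257 and 97.4 CPM in WT, and 159, 441 and 767 CPM as the lowest, median and highest value in WT + NACET. Akita + NACET replicates 3 and 5 lay within the range of the Akita libraries, and WT replicate 2 lay within that of WT + NACET. Over both genotypes the log2 change was 1.93 (SE 0.48, edgeR adjusted p = 0.229).

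The same libraries stood out in the sum of the 16 markers. It was 213, 175, 414 and 146 CPM in Akita, and 873, 830, 312, 787 and 199 CPM in Akita + NACET. It was 259, 1155 and 295 CPM in WT, and between 817 and 1782 CPM in WT + NACET. Akita replicate 3 was the highest Akita library and WT replicate 2 the highest WT library, and the groups overlapped in both genotypes.

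That order of libraries ran through the higher group. In 38 of its 62 genes (61.3%) Akita replicate 3 was the highest Akita library and WT replicate 2 the highest WT library, against 9.93% of all genes. In the lower group it was 1 of 22 genes (4.55%). The 2 libraries were singled out by the marker sums of these same data, so these shares are a description and not independent support. When the mean level of the marker list was put into the model, a fit added once the data had been seen, 16 of the 62 higher and 6 of the 22 lower genes kept an unadjusted p of at most 0.05 in each genotype with the same sign, and 0 genes were called over both genotypes. In that fit the 4 called genes had log2 changes of -0.92 (Csrp3), 2.21 (Gm4419), 3.35 (Ntsr2) and 1.41 (Xlr3b). Of the 62 genes, 4 are themselves on the marker list. The marker sum had medians of 194 CPM in Akita, 787 CPM in Akita + NACET, 295 CPM in WT and 1269 CPM in WT + NACET. The fit therefore cannot separate the marker level from NACET. How much of the higher group follows the amount of pigment epithelium in a library was not tested.

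Other genes at the head of the higher group were not on the marker list, but many shared the library order of its sum. For Pltp, Trf, Tshr, Tmem72, Sema3c and Car12, Akita replicate 3 was the highest Akita library and WT replicate 2 the highest WT library. Pltp, the phospholipid transfer protein, was 2.60, 2.08, 3.14 and 2.24 CPM in Akita and 9.30, 7.37, 3.77, 9.20 and 3.004 CPM in Akita + NACET. It was 3.73, 9.03 and 3.25 CPM in WT and 7.25, 13.9 and 22.6 CPM as the lowest, median and highest value in WT + NACET. The groups overlapped in both genotypes, with a log2 change of 1.39 (SE 0.28, edgeR adjusted p = 0.124). Trf, transferrin, changed by 1.54 (SE 0.34, adjusted p = 0.172).

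Mertk, the receptor kinase through which pigment epithelium takes up shed outer segments, was 1.61, 1.85, 2.13 and 1.66 CPM in Akita and 4.62, 3.36, 2.55, 3.42 and 3.33 CPM in Akita + NACET, without overlap. In WT it was 2.23, 3.36 and 2.05 CPM and in WT + NACET 2.79, 4.56 and 5.50 CPM as the lowest, median and highest value, with overlap. The log2 change was 0.85 (SE 0.17, adjusted p = 0.124). Osmr, the oncostatin M receptor, changed by 0.91 (SE 0.19, adjusted p = 0.128), Gpc3, glypican 3, by 0.81 (SE 0.18, adjusted p = 0.165) and Slc1a1, a neuronal transporter of glutamate and cysteine, by 0.63 (SE 0.15, adjusted p = 0.187). Tshr, Tmem72, Sema3c and Car12 had log2 changes of 1.28, 1.56, 2.08 and 1.97, with adjusted p between 0.124 and 0.18.

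The metallothioneins Mt1 and Mt2, small cysteine-rich proteins that bind zinc and copper, were both among the 62. They lie 5.5 kb apart on chromosome 8. Mt2 was 7.01, 5.56, 5.59 and 3.73 CPM in Akita and 6.89, 12, 8.68, 9.13 and 8.49 CPM in Akita + NACET. It was 5.10, 9.43 and 4.70 CPM in WT and 7.98, 9.39 and 12.3 CPM as the lowest, median and highest value in WT + NACET. In each genotype 1 library broke the separation, Akita + NACET replicate 1 in the former and WT replicate 2 in the latter. The log2 change of Mt2 was 0.67 (SE 0.16, adjusted p = 0.175) and that of Mt1 was 0.49 (SE 0.13, adjusted p = 0.264), while Mt3, the neural member of the family, had 0.12 (adjusted p = 0.95). Of 15 genes for metallothioneins and metal handling, 6 were higher in both genotypes (13.7% of all genes were) and 3 lower in both (16.2% of all genes). An unadjusted p of at most 0.05 in each genotype was found for 3, all higher (0.383% of all genes), namely Mt1, Mt2 and Trf. Within Akita, 1 gene of the list was called higher and 2 lower, the latter Fth1 and Tfrc (edgeR adjusted p = 0.0444 and 0.0201).

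The 250 bases before the RefSeq starts of this pair (GRCm38.p6, plus strand) are shown because the genes moved together. Capitals mark the core of the metal response element, the site of the zinc-sensing factor MTF1, searched as TGCACNC and TGCGCNC on both strands.
Mt1 promoter, chr8:94178839-94179088, plus strand: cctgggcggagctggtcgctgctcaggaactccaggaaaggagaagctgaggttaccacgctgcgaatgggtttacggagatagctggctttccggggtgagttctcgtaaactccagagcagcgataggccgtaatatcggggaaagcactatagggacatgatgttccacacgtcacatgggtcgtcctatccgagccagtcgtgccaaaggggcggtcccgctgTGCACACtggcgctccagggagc
Mt2 promoter, chr8:94172368-94172617, plus strand: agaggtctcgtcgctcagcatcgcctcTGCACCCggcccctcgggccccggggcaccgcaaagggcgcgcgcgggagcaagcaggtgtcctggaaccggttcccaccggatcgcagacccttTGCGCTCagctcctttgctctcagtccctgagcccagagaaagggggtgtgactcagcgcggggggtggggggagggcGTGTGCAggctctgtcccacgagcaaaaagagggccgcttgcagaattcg
The Mt1 window held 1 match and the Mt2 window 3. The capitals do not mark the antioxidant response element, whose letters TGACNNNGC also occur in the Mt2 window, upstream of its last marked stretch. Of all 32851 promoter windows 21.4% held at least 1, and by gene 36.4% of the 44 higher genes with a promoter, 25.0% of the 20 lower genes and 23.8% of all genes.

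The lower group was led, by the larger of the 2 p-values among genes of at least 1 CPM, by Csrp3, Dnajb1, Grk5, Hdc, Gm11961 and Ide. Ide encodes the insulin-degrading enzyme, a metalloprotease that also cleaves amyloid beta. It was 156, 144, 203 and 208 CPM in Akita and 97.0, 90.7, 85.7, 131 and 146 CPM in Akita + NACET. It was 122, 128 and 145 CPM in WT and 88.2, 102 and 110 CPM as the lowest, median and highest value in WT + NACET. Only Akita + NACET replicate 5 reached the untreated range of its genotype. Ide changed by -0.54 on the log2 scale (SE 0.11, edgeR adjusted p = 0.124), with -0.69 in Akita and -0.38 in WT.

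Hdc, histidine decarboxylase, which makes histamine, had a log2 change of -0.39 (SE 0.08, adjusted p = 0.124). Its Akita libraries lay between 102 and 147 CPM and its Akita + NACET libraries between 76.7 and 90.7 CPM, while the WT groups, at 61.2 to 70.5 and 47.3 to 64.7 CPM, overlapped. Grk5, a kinase that desensitizes G protein-coupled receptors, changed by -0.74 (SE 0.17, adjusted p = 0.172), and the non-coding transcript Gm11961 by -0.46 (SE 0.09, adjusted p = 0.124).

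Some genes of the lower group were separated without overlap in each genotype. This held for 4 genes lower with NACET (0.0247% of all genes), Ckmt1, Csrp3, Enah and Fam168a, and for 1 gene higher (0.00618%), Xlr3b. Ckmt1, the ubiquitous mitochondrial creatine kinase, was 158, 153, 198 and 230 CPM in Akita and 125, 122, 130, 139 and 101 CPM in Akita + NACET. It was 147, 143 and 164 CPM in WT and 114, 129 and 142 CPM as the lowest, median and highest value in WT + NACET. Every one of the 11 treated libraries was below every one of the 7 untreated libraries, which held for 2 genes lower with NACET (0.0124%), Ckmt1 and Csrp3, and for 1 higher (0.00618%), Xlr3b. Ckmt1 changed by -0.42 on the log2 scale (SE 0.09, edgeR adjusted p = 0.128), with -0.58 in Akita and -0.24 in WT. Ckmt1 overlaps Strc on the opposite strand, and reads were counted without strand. Enah, an actin regulator, changed by -0.20 (SE 0.06) and Fam168a by -0.25 (SE 0.06), with adjusted p of 0.346 and 0.231.

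Among cytosolic heat shock proteins, Dnajb1 and Hspa1a were in the lower group. Dnajb1 is the main J-domain partner of inducible HSP70, and Hspa1a encodes that HSP70. Dnajb1 was 125, 119, 152 and 158 CPM in Akita and 110, 114, 113, 113 and 109 CPM in Akita + NACET. It was 101, 134 and 145 CPM in WT and 90.7, 97.3 and 115 CPM as the lowest, median and highest value in WT + NACET, so the Akita groups were separate and the WT groups overlapped. The log2 change was -0.33 (SE 0.07, edgeR adjusted p = 0.165) for Dnajb1, -0.49 (SE 0.12, adjusted p = 0.187) for Hspa1a and -0.58 (adjusted p = 0.282) for its near-identical copy Hspa1b. Of the 20 genes of the list, 6 were lower in both genotypes and 0 higher, against 16.2% and 13.7% of all genes, and 5 had an unadjusted p of at most 0.05 in the additive fit, all lower, against 3.52% of all genes. The median of the list was -0.06, since the other 14 had opposite signs.

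**Figure D3:**
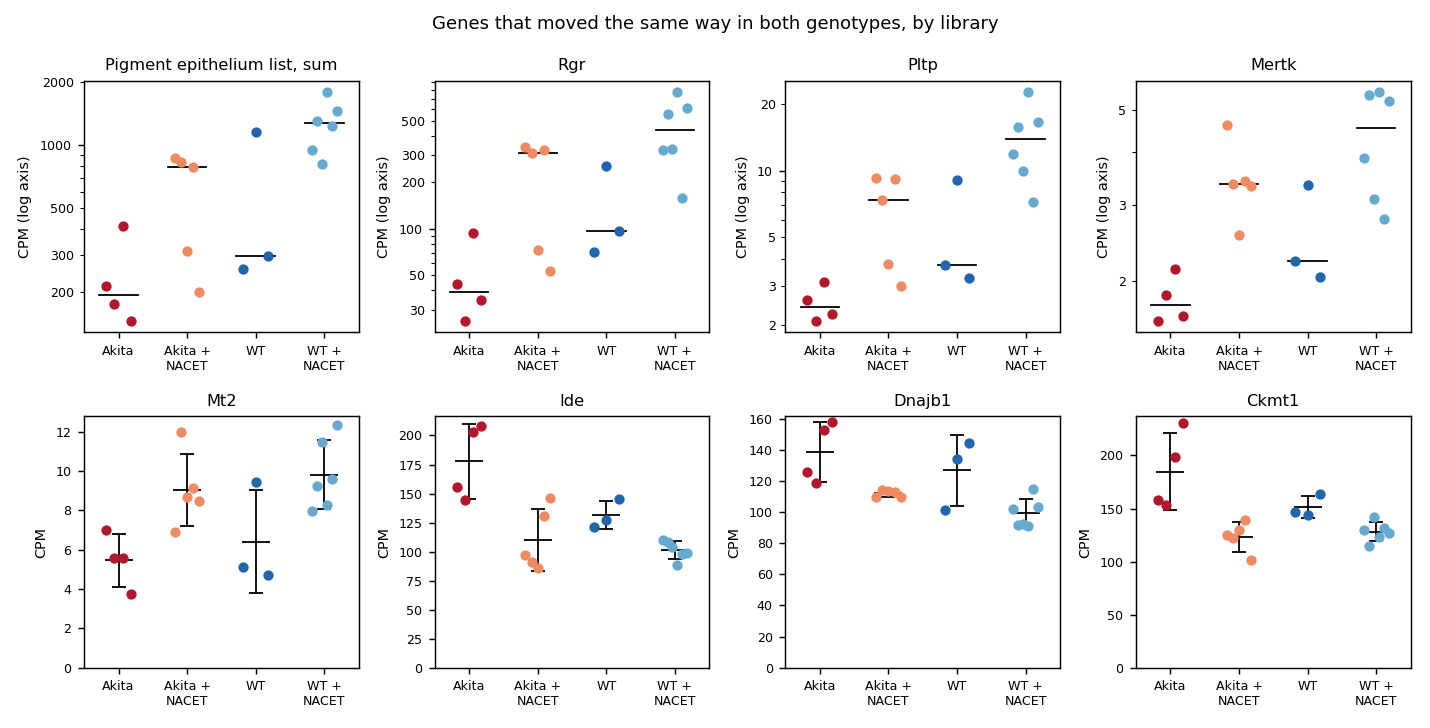
Levels in CPM by library (points) for the summed pigment epithelium list, Rgr, Pltp and Mertk on log axes with group medians (bars), and for Mt2, Ide, Dnajb1 and Ckmt1 on linear axes with mean and SD. In the upper panels Akita replicate 3 and WT replicate 2 stand above the other untreated libraries of their groups, and for Ckmt1 the treated libraries, at most 142 CPM, sit below all untreated ones.

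Immediate early genes, many of which encode transcription factors, are induced within minutes by neuronal activity or stress. Of 19 tested, 10 were lower in both genotypes and 0 higher, against 16.2% and 13.7% of all genes. In the additive fit 9 had an unadjusted p of at most 0.05, all lower, against 3.52% of all genes, but 0 had it in each genotype and 0 were called. The list's median log2 change was -0.24 over both, -0.07 in Akita and -0.76 in WT. Nr4a1, an orphan nuclear receptor, was 57.0, 58.7, 8.04 and 22.2 CPM in Akita and 17.1, 29.5, 20.8, 16 and 20.6 CPM in Akita + NACET. It was 31.3, 22.6 and 26.1 CPM in WT, and between 5.31 and 11.3 CPM in WT + NACET. The Akita libraries spread widely around the treated ones, while the WT groups did not overlap. Nr4a1 changed by -1.22 on the log2 scale (SE 0.29, edgeR adjusted p = 0.19).

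The red cell transcripts tested, which are mostly globins and mark blood left in the tissue, were higher in both genotypes for 4 of 5 genes, against 13.7% of all genes. Hbb-b1 had a log2 change of 1.25 (SE 0.30, adjusted p = 0.202). The summed level was 11.9 to 33.9 CPM in Akita, 35.7 to 97.2 CPM in Akita + NACET, 12.8 to 28.5 CPM in WT and 20.0 to 56.4 CPM in WT + NACET.

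The NRF2 pathway, which the study set out to examine, held 0 genes that passed the test over both genotypes. Only 0.0247% of all genes passed it, so 0 in a list of this size says little about the pathway. The study reported higher NRF2, NQO1 and HMOX1 protein in Akita retina after NACET, while the values here are RNA. Of 39 NRF2 target genes tested, 7 were higher in both genotypes and 2 lower, against 13.7% and 16.2% of all genes, 30 had opposite signs, and 0 were called over both genotypes. The median log2 change was -0.03 over both genotypes, -0.12 in Akita and 0.15 in WT. Nqo1, a quinone reductase often read as an NRF2 marker, was 7.57, 5.96, 9.10 and 2.90 CPM in Akita and 6.41, 8.01, 7.78, 7.71 and 5.42 CPM in Akita + NACET, which overlap. Its log2 change was 0.32 (SE 0.18, edgeR adjusted p = 0.837), with 0.14 in Akita and 0.52 in WT.

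Among the other genes of the pathway, Gclm, the modifier subunit of the enzyme that limits glutathione synthesis, had 0.06 (SE 0.08), and Hmox1, heme oxygenase 1, had -0.03 (SE 0.20). Gclc, Gsr, Txnrd1, Srxn1, Slc7a11 and Mgst1 had log2 changes between -0.20 and 0.12. Nfe2l2, the gene for NRF2, and Txn1, thioredoxin, fell in Akita by 0.35 and 0.40 on the log2 scale (edgeR adjusted p = 0.0411 and 0.0463). In WT they had log2 changes of 0.20 and 0.27 that did not pass (adjusted p = 0.317 and 0.258), and the changes differed between genotypes (interaction adjusted p = 0.0179 and 0.0156). Keap1 had 0.00. Of genes read as signs of gliosis and inflammation, Gfap had -0.28 in Akita (adjusted p = 0.657) and 1.83 in WT (adjusted p = 0.0539), with an interaction at adjusted p = 0.0209, and Il1b and Il6 were too low to test, with 21 and 4 reads over all 18 libraries.

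Most other lists had few members with the same sign in both genotypes, where 13.7% of all genes were higher and 16.2% lower. For the nuclear-encoded respiratory chain, 63 of 65 genes had opposite signs, for glutamate receptor subunits 23 of 25, for rod markers 19 of 20, for bipolar cell markers 15 of 17 and for amacrine markers 12 of 12. In both genotypes 5 of 24 genes of cysteine and sulfur metabolism were higher and 4 lower, 6 of 37 genes of glutathione synthesis and use were higher and 3 lower, and 2 of 25 genes of thioredoxins, peroxiredoxins and superoxide removal were higher and 1 lower. For NRF2 regulators it was 1 higher and 1 lower of 14, for the ATF4 response 2 higher and 5 lower of 27, for chaperones of the endoplasmic reticulum 1 higher and 4 lower of 24, for clock genes 1 higher and 3 lower of 21, and for cholesterol synthesis 0 higher and 5 lower of 21. Inflammation and gliosis had 5 higher and 2 lower of 21.

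Among cell type markers, those of cones had 1 higher and 2 lower of 13, ganglion cells 2 higher and 1 lower of 17, horizontal cells 2 higher and 1 lower of 7, Mueller glia 4 higher and 3 lower of 14, astrocytes 3 higher and 2 lower of 7 and microglia 2 higher and 2 lower of 15. Endothelial markers had 3 higher and 0 lower of 16, pericyte and smooth muscle markers 5 higher and 0 lower of 11, muscle markers 5 higher and 2 lower of 13 with Csrp3 as the only call, lens crystallins 0 of 17 in either direction, and Y-linked or female-specific genes 1 higher and 0 lower of 4. Apart from muscle markers, 0 members of any list were called over both genotypes, where 0.0247% of all genes were.

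**Figure D4:**
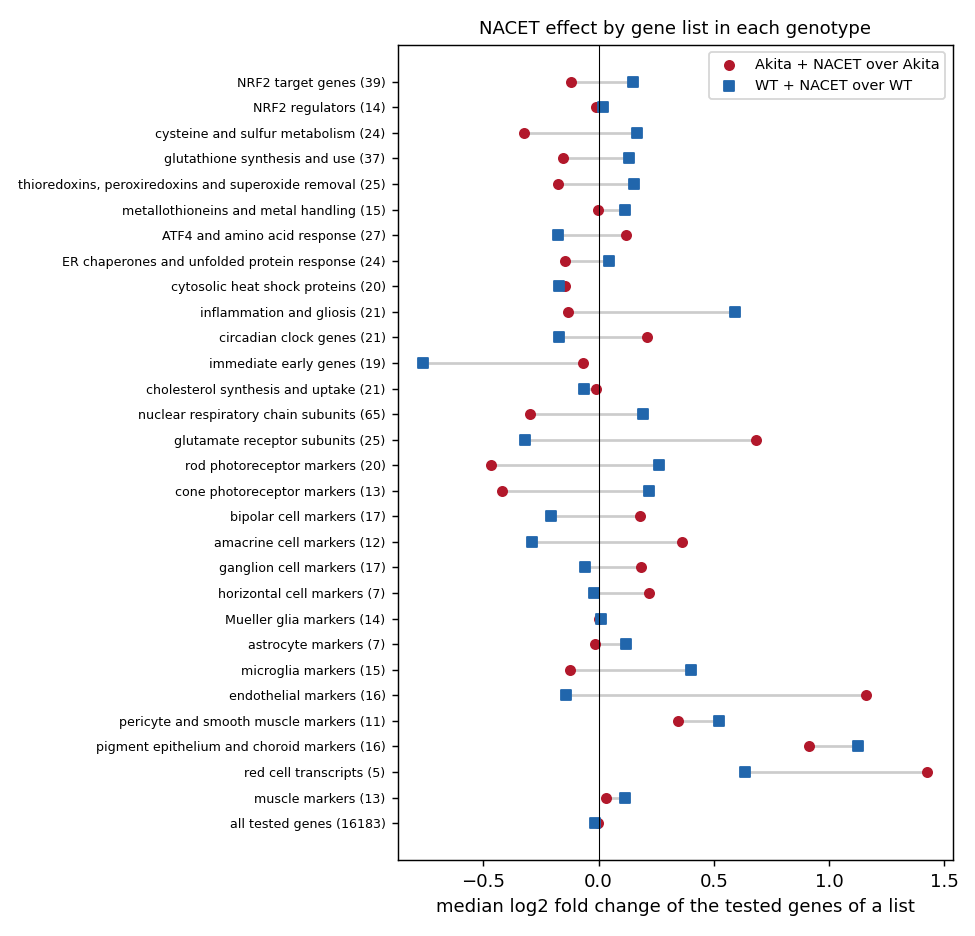
Median log2 fold change with NACET of the tested genes of each list (number in brackets) within Akita (circles) and within WT (squares), with lens crystallins and Y-linked genes not drawn. The pigment epithelium list has both medians near 1, at 0.91 and 1.13, red cell transcripts are positive in both, and the lists of rods, respiratory chain and glutamate receptors have medians of opposite sign.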

How the data were processed

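The authors made poly(A) libraries, aligned single-end reads to mm9 with TopHat2 2.1.0 and counted reads over exons with HTSeq 0.11.2 regardless of strand. Raw counts of reads per gene were deposited. Of 35006 gene names, 206 ribosomal RNA genes (0.977% of counts) and 1 unnamed entry (0.00544%) were removed, and 5 summary entries stayed out of library sizes. Of the names, 33437 were found in the mm9 annotation.

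Counts were tested with edgeR 4.0.16 (R 4.3.3, TMM, minimum count 10, robust quasi-likelihood F test). An additive fit of genotype and treatment gave the effect over both genotypes, and a fit of all 4 groups gave the effects within each genotype and their interaction. For the joint requirement, the larger p of the 2 was adjusted where signs agreed. SEs were derived from the F statistic. Levels are CPM on TMM-scaled sizes, not per length. The threshold was an adjusted p of 0.05. The tests were tried on simulated counts. Alternatives were DESeq2 1.42.0, the tool of the study, sva 3.50.0, covariates, filters and leaving out each library.

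The rule named called genes of at least 1 CPM in mean level with an unadjusted p of at most 0.05 in each genotype, and 15 genes of the NRF2 pathway, gliosis and inflammation. Others were chosen after their values were seen. Members and the 31 gene lists were chosen with earlier results of these data known, and some genes are not reported here. Replicate pairs differed by 4.67 to 50.8 in chi-square per gene, so each library was counted once.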

Additional observations from a re-analysis of the deposited data

Results flagged for a closer look

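Of 39 named genes, 6 had NACET effects that differed between the genotypes by the interaction test of edgeR. The interaction was called for 20.3% of all genes, so this count is not above that share. The difference, Akita minus WT on the log2 scale, was 0.712 for Csrp3 (adjusted p = 0.0194), -2.44 for Gm4419 (adjusted p = 0.011) and -1.33 for Xlr3b (adjusted p = 0.0358), all with the same sign in both genotypes and the larger change in WT. It was -0.548 for Nfe2l2 (adjusted p = 0.0179), -0.673 for Txn1 (adjusted p = 0.0156) and -2.11 for Gfap (adjusted p = 0.0209), where the 2 changes had opposite signs. Nfe2l2 and Txn1 passed in Akita and not in WT, and Gfap passed in neither genotype after adjustment (adjusted p = 0.657 in Akita and 0.0539 in WT).

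Among 117 groups of named genes checked for a single library far from the others, 12 had one, where chance gives about 1 in 20. Several of the 12 fell in the same library, so the groups are not independent, and an excess was not tested. In Akita replicate 4, Hdc was at 147 CPM (others 102 to 108), Fam168a at 244 CPM (others 186 to 196), Hspa1a at 141 CPM (others 76.3 to 84) and Txn1 at 54.8 CPM (others 66.5 to 68.6). In Akita replicate 3, Sema3c was at 3.89 CPM (others 1.27 to 1.54) and Hmox1 at 4.83 CPM (others 2.81 to 3.15). In Akita + NACET, Agxt2l1 was at 18.4 CPM in replicate 4 (others 24 to 24.7), Tmf1 at 16.7 CPM in replicate 1 (others 11 to 12) and Nfe2l2 at 35.7 CPM in replicate 1 (others 25.7 to 27.4). In WT + NACET, Klhdc4 was at 15.1 CPM in replicate 3 (others 10.7 to 11.8), Keap1 at 57.9 CPM in replicate 6 (others 52 to 54.2) and Hmox1 at 7.55 CPM in replicate 5 (others 3.29 to 4.42), the library with the most lens RNA.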

How the results depend on the processing

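The 4 calls over both genotypes, all with the same sign in each, were again 4 with DESeq2 size factors, without a filter on low counts, with ribosomal RNA genes kept, and with signs from each genotype fitted alone. DESeq2 called 84 genes, of which 83 moved the same way (63 higher, 20 lower, 53 of them among the 84 genes at an unadjusted p in each genotype). A mean count of at least 50 left 1 call, Csrp3. There were 8 calls, all of the same sign, with 1 surrogate variable and 8 when the model held the share outside exons, and both sets held the 4 genes. The mean of the 2 genotype effects gave 36 calls. Of the alternatives chosen after seeing the data, the pigment epithelium level as a covariate gave 0 calls, and leaving out the 3 libraries with lens RNA gave 9, including the 4. Leaving out 1 library gave 1 to 10 calls for the additive effect and 1 to 10 for calls of the same sign. The 10 came without Akita replicate 3 and 9 without WT + NACET replicate 5, and Csrp3 was called each time. The joint requirement gave 0 calls in all fits run for it. The cause of these differences was not tested.

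Titles number the replicates of each group. The titles do not say whether equal numbers in different groups mark a pair. Deviations from the group means correlated above 0.1 in 4 of 22 same-numbered pairs (median r = -0.00138). Libraries with different numbers were not compared, so these values cannot settle whether the numbers mark pairs. With the replicate number as a block there were 0 calls over both genotypes and 0 of the same sign, Csrp3 having a log2 change of -0.89 and an adjusted p of 0.101.

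The interaction fell from 3289 to 17 calls when the model held the share outside exons, and leaving out 1 library gave 1699 (without WT replicate 1) to 3524, with 1730 without WT replicate 2. The difference of that share in WT kept its sign without each library, between -4.36 and -2.96 points, but an exact permutation p under the threshold came only without WT + NACET replicate 2 (p = 0.0357). Changes near 0 turned sign. Keap1 had -0.0205 with the replicate block, -0.0173 with the pigment epithelium covariate and -0.0242 without lens-rich libraries, and -0.0190 to 0.035 without 1 library. Hmox1 had 0.0508 with the share outside exons and -0.139 to 0.116 without 1 library. Gclm had -0.0252 with the pigment epithelium covariate. Gsr had 0.00767 at a mean count of at least 50, 0.00877 with the share outside exons, 0.0181 with the pigment epithelium covariate, and -0.0426 to 0.0386 without 1 library. Without 1 library Slc7a11 ranged from -0.496 to 0.229 and Mgst1 from -0.439 to 0.181.

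Depth limits Ntsr2, with at most 4 reads per library outside WT + NACET, and Il1b and Il6, which were not tested.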
